A study of Arabidopsis thaliana with 10 samples.

Results

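The genes described here are 7 of the Arabidopsis thaliana genes of gibberellin synthesis, GA1, GA2, GA3, GA20OX1, GA20OX2, GA20OX3 and GA3OX1, and the 3 gibberellin receptor genes GID1A, GID1B and GID1C. These 10 genes were chosen by locus from pathway knowledge, out of the 38303 genes in the deposited tables. The data are mRNA sequencing of whole 12-day-old seedlings kept at 23 °C in long days (16 h light, 8 h dark). The 10 libraries, which the sample titles call biological replicates, fall into 5 groups of 2, all in the accession Col-0. In the hormone experiment, wild-type Col-0 seedlings received 100 nM brassinolide (BL, the most active brassinosteroid) for 6 h and were set against wild-type Col-0 seedlings given mock, which the titles call non-treatment. In the overexpression experiment, untreated seedlings expressing BEH2-YFP and untreated seedlings expressing BZR1-YFP were each set against the same untreated wild-type Col-0. Both fusions of a transcription factor to yellow fluorescent protein are driven by the constitutive 35S promoter, so they are not limited to the cells where the factor normally acts. How many independent transgenic lines stand behind each genotype is not given in the sources used here; a genotype may be 1 line. The series asks whether BZR1 and BEH2, 2 transcription factors of the same brassinosteroid signalling family, regulate different genes.

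Gibberellins are growth hormones made from a diterpene precursor. The early enzymes GA1, GA2 and GA3 build and oxidise ent-kaurene, and the later 20-oxidases and 3-oxidases turn its products into bioactive gibberellin. The GID1 proteins are soluble receptors: with gibberellin bound, they take hold of the DELLA repressors, which are then degraded, and growth genes are released. In Arabidopsis, transcripts of GA3OX1, of several 20-oxidases and of GID1 genes are known to be lower when gibberellin signalling is strong, a feedback described for this pathway.

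Values are FPKM (fragments per kilobase of transcript, adjusted for the depth of sequencing), with 1 value per gene and group that the authors pooled over 2 libraries. The depth and spread of single libraries are therefore unknown. A gene is called here at a q-value (adjusted p-value) under 0.05 in the authors' deposited table. A log2 ratio is given ± its standard error, worked out from the statistic of the authors' test. A Cuffdiff p-value of 5e-05 has the same q-value, 0.00149, in both lines, so the authors' q-values seem adjusted over both lines together. Where Cuffdiff p-values are adjusted again below over genes with at least 1 FPKM, this is done within each comparison. For the lines, that changes the pooling as well as the genes. The transgenes were visible in the data: BEH2 stood at 2477 FPKM in BEH2-YFP seedlings and 25.8 FPKM in Col-0, and BZR1 at 1265 FPKM in BZR1-YFP seedlings and 13.8 FPKM in Col-0. In the hormone experiment BEH2 fell, at 6.91 FPKM with BL and 53.5 FPKM in mock (q = 0.00175 in the authors' deposited table). BZR1 was at 27.0 FPKM with BL and 23.0 FPKM in mock, not called. In whole seedlings, a change in the share of cells that express a gene and a change in RNA per cell cannot be told apart. Of the organ markers, the flower genes as a set lay furthest from Col-0 in both lines. The 4 flower genes AP1, PI, AP3 and AG summed to 3.31 FPKM in BEH2-YFP and 6.68 FPKM in BZR1-YFP, against 11.9 FPKM in Col-0, with 4 of 4 lower in both lines and 2 called in BEH2-YFP (AP1 and PI) and 1 in BZR1-YFP (AP1); adjusted again over genes with at least 1 FPKM, 3 were called in BEH2-YFP and 0 in BZR1-YFP. The 4 root genes summed to 1555 FPKM in BEH2-YFP, 1747 FPKM in BZR1-YFP and 1868 FPKM in Col-0, with 1 of 4 called, the root hair gene COBL9, which fell in BEH2-YFP. The 3 shoot genes summed to 12581 FPKM in BEH2-YFP, 15670 FPKM in BZR1-YFP and 15885 FPKM in Col-0, with none called in either line, although RBCS1A and LHCB1.1 were lower in BEH2-YFP. With BL the sums were 3.84 FPKM for flower, 1083 FPKM for root and 7203 FPKM for shoot genes, against 3.17, 1213 and 6571 FPKM in mock, and no marker was called, with 1 root and 1 shoot marker at an unadjusted p-value under 0.05 of the Cuffdiff test. The part of these markers in the results below was not tested.

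The annotated regions upstream of the genes are shown first because the data concern seedlings in which a DNA-binding factor was overproduced. BZR-family proteins are known to bind the BR response element, in the forms CGTGTG and CGTGCG, and the G-box CACGTG, a form of the E-box CANNTG. The 250 bases before the annotated start were read on both strands from the TAIR10.1 genome for 27443 protein-coding genes. The sequences shown belong to the 4 genes called in BEH2-YFP (GA3, GA3OX1, GID1A and GID1B). They are written 5′ to 3′ on the strand of the gene, and capitals mark matches to these motifs. The windows are chr5:9035567-9035816 (plus strand) for GA3, chr1:5346343-5346592 (minus strand) for GA3OX1, chr3:1430113-1430362 (plus strand) for GID1A and chr3:23288993-23289242 (plus strand) for GID1B.
GA3: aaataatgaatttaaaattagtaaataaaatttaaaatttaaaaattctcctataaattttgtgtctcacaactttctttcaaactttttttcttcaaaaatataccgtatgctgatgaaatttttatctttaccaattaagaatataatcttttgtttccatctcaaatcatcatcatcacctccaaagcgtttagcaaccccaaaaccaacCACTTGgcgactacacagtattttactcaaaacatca
GA3OX1: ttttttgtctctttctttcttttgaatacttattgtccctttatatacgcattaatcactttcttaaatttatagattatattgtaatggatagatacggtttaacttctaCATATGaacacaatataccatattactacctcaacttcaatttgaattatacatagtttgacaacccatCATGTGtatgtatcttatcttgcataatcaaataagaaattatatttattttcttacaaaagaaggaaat
GID1A: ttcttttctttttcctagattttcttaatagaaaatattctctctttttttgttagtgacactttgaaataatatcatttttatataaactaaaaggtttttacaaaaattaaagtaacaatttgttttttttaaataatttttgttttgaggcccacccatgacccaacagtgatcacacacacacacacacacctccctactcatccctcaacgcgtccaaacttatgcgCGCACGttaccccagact
GID1B: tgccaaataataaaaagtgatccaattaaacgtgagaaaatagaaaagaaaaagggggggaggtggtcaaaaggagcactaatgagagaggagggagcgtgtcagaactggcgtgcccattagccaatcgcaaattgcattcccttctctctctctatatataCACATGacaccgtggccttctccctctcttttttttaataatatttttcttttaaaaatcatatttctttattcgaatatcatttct

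Among the 10 genes, CGTGTG and CACGTG matched no window, against 5.37% and 6.49% of all windows. CGTGCG matched 1, that of GID1A, on the strand opposite to the gene at positions -18 to -13 from its start, against 1.57% of all windows. The E-box matched 7 of 10 windows, against 55.3% of all windows. GA3 holds 1 E-box, beginning at position -37 from its start, GA3OX1 holds 2, at -139 and -70, GID1B holds 1, at -87, and GID1A holds none. A match describes letters only, and most windows of the genome hold an E-box.

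The early genes stood at very different levels. GA1 (AT4G02780, chromosome 4, 1237671 to 1244822, minus strand, 15 exons) encodes ent-copalyl diphosphate synthase, the entry enzyme of the pathway. It was at 0.311 FPKM with BL and 0.242 FPKM in mock, and at 0.160 FPKM in BEH2-YFP, 0.389 FPKM in BZR1-YFP and 0.302 FPKM in Col-0. It was below 1 FPKM in all 5 groups, the authors did not test it for BEH2-YFP, and it was not called in the other 2 comparisons (q = 0.983 for BL and 0.989 for BZR1-YFP in the authors' deposited tables). GA2 (AT1G79460, chromosome 1, 29890367 to 29894646, plus strand, 15 exons) encodes ent-kaurene synthase. It was at 3.86 FPKM with BL and 3.57 FPKM in mock, and at 9.44 FPKM in BEH2-YFP, 6.85 FPKM in BZR1-YFP and 6.04 FPKM in Col-0. The BEH2-YFP value was the highest of the 5 (log2 0.64 ± 0.25 against Col-0), but it was not called (p = 0.0126, q = 0.136 in the authors' deposited table). The last 78 bases of GA2 overlap AT1G79470 on the opposite strand. The libraries were stranded, but the use of strand in counting is not given in the sources used here. Whether reads of the 2 genes in that overlap were told apart is therefore unknown. The span that the authors give for GA2 also differs from the annotation and ends at 29897166. AT1G79470 itself was at 5.66 FPKM in BEH2-YFP and 8.08 FPKM in Col-0, below Col-0 where GA2 was above it.

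GA3 (AT5G25900, chromosome 5, 9035817 to 9038423, plus strand, 7 exons) encodes ent-kaurene oxidase, a cytochrome P450 that carries out the oxidation of ent-kaurene. It was the most abundant of the 10 genes in all 5 groups, at 29.5 FPKM with BL and 33.0 FPKM in mock, and at 34.4 FPKM in BEH2-YFP, 17.5 FPKM in BZR1-YFP and 13.9 FPKM in Col-0. In BEH2-YFP it rose 2.48-fold over Col-0 (log2 1.31 ± 0.18, 95% interval 0.95 to 1.67, q = 0.00149 in the authors' deposited table). In BZR1-YFP its log2 ratio was 0.33 ± 0.19 (q = 0.459 in the authors' deposited table), and with BL it was -0.16 ± 0.16 (q = 0.905 in the authors' deposited table). GA3 was thus higher in BEH2-YFP than in either BZR1-YFP or Col-0, while the 2 hormone groups lay close together.

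The 20-oxidase genes, which encode the enzymes of the multistep oxidation before the final activation, were low in all groups and none was called. GA20OX1 (AT4G25420, chromosome 4, 12990851 to 12992585, minus strand) was at 0.754 FPKM with BL and 0.383 FPKM in mock, and at 2.06 FPKM in BEH2-YFP, 2.36 FPKM in BZR1-YFP and 1.81 FPKM in Col-0. Its log2 ratio for BL was 0.98 ± 0.44, which lies past an unadjusted p-value of 0.05 but is not called (p = 0.0281, q = 0.269 in the authors' deposited table), and it is 0.34 with 1 FPKM added to both values. GA20OX2 (AT5G51810, chromosome 5, 21055179 to 21056881, minus strand) was at 0.761 FPKM with BL and 0.996 FPKM in mock, and at 1.42 FPKM in BEH2-YFP, 0.651 FPKM in BZR1-YFP and 1.09 FPKM in Col-0. The lines lay on opposite sides of Col-0 for GA20OX2, with log2 ratios of 0.38 ± 0.38 in BEH2-YFP and -0.75 ± 0.43 in BZR1-YFP (q = 0.909 and 0.469 in the authors' deposited tables). GA20OX3 (AT5G07200, chromosome 5, 2243553 to 2245339, minus strand) was at 0.0190 FPKM with BL and 0.0298 FPKM in mock, and at 0.475 FPKM in BEH2-YFP, 0.164 FPKM in BZR1-YFP and 0.206 FPKM in Col-0. The authors tested it only for BEH2-YFP, where its log2 ratio was 1.21 ± 0.62 (q = 0.359 in the authors' deposited table), with an interval from -0.02 to 2.43; the ratio is 0.29 with 1 FPKM added to both values. Summed, the 3 genes gave 1.53 FPKM with BL and 1.41 FPKM in mock, and 3.95 FPKM in BEH2-YFP, 3.17 FPKM in BZR1-YFP and 3.10 FPKM in Col-0. Over the coding sequence, GA20OX1 and GA20OX2 are 79.4% identical with a longest identical run of 29 bases, and GA20OX3 is 69.1% identical to GA20OX1 and 69.0% to GA20OX2.

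GA3OX1 (AT1G15550, chromosome 1, 5344388 to 5346342, minus strand, 2 exons) encodes a 3-oxidase that makes bioactive gibberellin in vegetative tissue. It was at 9.03 FPKM with BL and 7.73 FPKM in mock, and at 11.8 FPKM in BEH2-YFP, 6.30 FPKM in BZR1-YFP and 5.13 FPKM in Col-0. BEH2-YFP had the highest and Col-0 the lowest of the 5 values. GA3OX1 rose 2.31-fold in BEH2-YFP (log2 1.21 ± 0.22, 95% interval 0.77 to 1.64, q = 0.00149 in the authors' deposited table). It was not called in BZR1-YFP (log2 0.30 ± 0.23, q = 0.766 in the authors' deposited table) or with BL (log2 0.22 ± 0.20, q = 0.855 in the authors' deposited table).

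**Figure D1:**
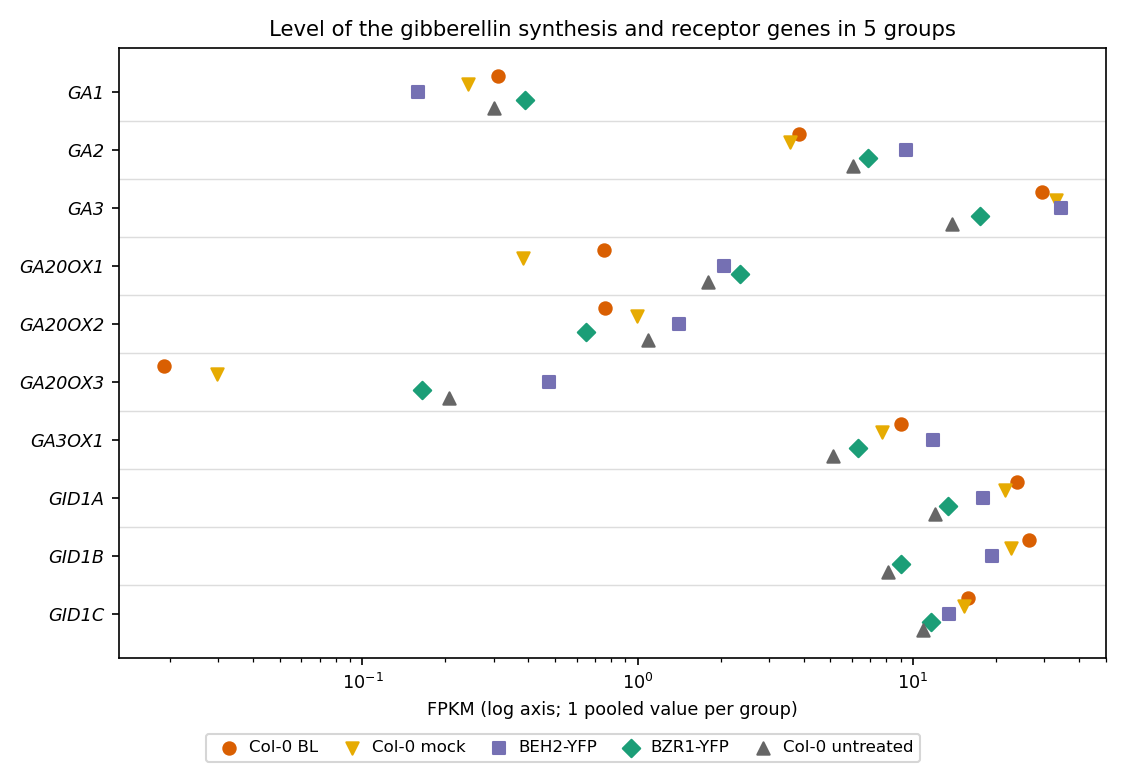
FPKM of the 10 genes on a log axis, with 1 point per group for the authors' pooled value of 2 libraries; the points of a gene are set apart vertically for legibility. GA3 lies furthest right in all 5 groups, at 13.9 to 34.4 FPKM, and GA1 and GA20OX3 lie below 1 FPKM throughout.

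All 3 receptor genes were expressed at 8.11 FPKM or more in the 5 groups. GID1A (AT3G05120, chromosome 3, 1430363 to 1432844, plus strand) was at 23.8 FPKM with BL and 21.6 FPKM in mock, and at 17.9 FPKM in BEH2-YFP, 13.4 FPKM in BZR1-YFP and 12.1 FPKM in Col-0. It rose 1.48-fold in BEH2-YFP (log2 0.57 ± 0.19, 95% interval 0.20 to 0.94, q = 0.0378 in the authors' deposited table), a smaller change than the other 3 called genes and closer to the threshold. GID1B (AT3G63010, chromosome 3, 23289243 to 23291486, plus strand) was at 26.4 FPKM with BL and 22.6 FPKM in mock, and at 19.4 FPKM in BEH2-YFP, 9.00 FPKM in BZR1-YFP and 8.11 FPKM in Col-0. It rose 2.39-fold in BEH2-YFP (log2 1.26 ± 0.19, 95% interval 0.88 to 1.64, q = 0.00149 in the authors' deposited table). GID1C (AT5G27320, chromosome 5, 9628990 to 9631291, plus strand) was at 15.8 FPKM with BL and 15.3 FPKM in mock, and at 13.5 FPKM in BEH2-YFP, 11.6 FPKM in BZR1-YFP and 10.8 FPKM in Col-0. It varied least of the receptor genes and was not called in BEH2-YFP (log2 0.31 ± 0.19, interval -0.07 to 0.69, q = 0.550 in the authors' deposited table).

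In the other comparisons the receptor genes were not called. With BL the log2 ratios were 0.14 ± 0.16 for GID1A, 0.22 ± 0.16 for GID1B and 0.05 ± 0.17 for GID1C (q = 0.975, 0.722 and 0.999 in the authors' deposited table). In BZR1-YFP they were 0.15 ± 0.19 for GID1A, 0.15 ± 0.20 for GID1B and 0.10 ± 0.20 for GID1C (q = 0.990, 0.999 and 0.999 in the authors' deposited table). The share of GID1B among the receptor transcripts differed between groups. The 3 genes summed to 50.7 FPKM in BEH2-YFP, of which GID1B was 38.3%, to 34.0 FPKM in BZR1-YFP with 26.5%, and to 31.0 FPKM in Col-0 with 26.2%. In untreated Col-0 and in BZR1-YFP GID1B was the least abundant receptor transcript, and in BEH2-YFP it was the most abundant. It was also the most abundant in wild-type Col-0 of the hormone experiment, both with BL and in mock. This order of pooled values was not tested. In the hormone experiment the sum was 66.0 FPKM with BL and 59.5 FPKM in mock, and GID1B was 40.0% and 38.0% of it. The coding sequences of GID1A and GID1C are 83.8% identical with a longest identical run of 35 bases, and those of GID1B are 70.5% and 71.5% identical to GID1A and GID1C. How reads that match more than 1 gene were shared is not given in the sources used here.

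**Figure D2:**
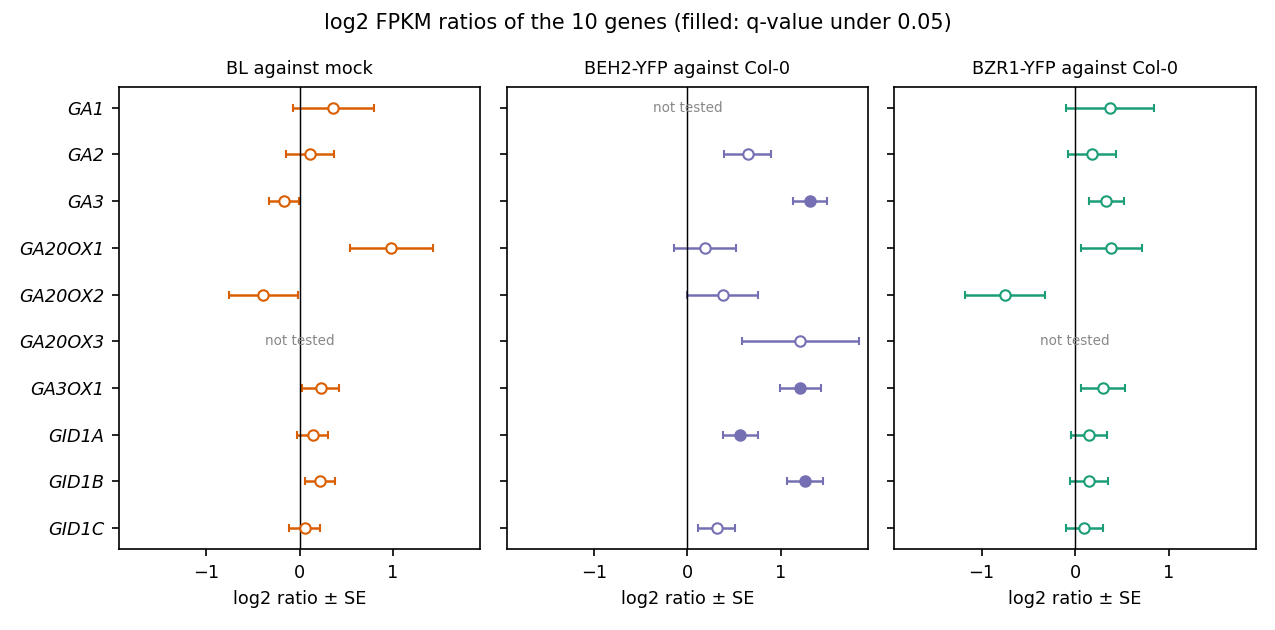
log2 ratio of FPKM for each gene in the 3 comparisons, BL over mock, BEH2-YFP over Col-0 and BZR1-YFP over Col-0, with bars of 1 standard error. The 4 filled points, GA3, GA3OX1, GID1A and GID1B in BEH2-YFP, are those with a q-value under 0.05.

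Over the 10 genes, 4 of the 9 tested rose in BEH2-YFP and 0 fell. The share of genes called across that whole table was 11.8% in both directions and 7.31% for rises. The median log2 ratio of the 9 was 0.64, beside -0.01 for all 22729 genes tested, and 9 of 9 had a positive ratio. Of the 9, 5 had an unadjusted p-value under 0.05 in the authors' deposited table, the additional gene being GA2, against 23.3% of all genes. The stricter rule of a 2-fold change and a q-value under 0.1 left 3 (GA3, GA3OX1 and GID1B), against 6.66% of all genes. The genes that rose were the ent-kaurene oxidase gene GA3, the 3-oxidase gene GA3OX1 and 2 of the 3 receptor genes. GA3OX2, a 3-oxidase gene outside these 10, lay below Col-0 in BEH2-YFP, at 0.684 against 1.23 FPKM (log2 -0.85 ± 0.42). It was not called there (p = 0.0492, q = 0.343 in the authors' Cuffdiff test). The synthesis genes KAO1 and KAO2, also outside these 10, were not called in BEH2-YFP either. They stood at 5.92 and 16.1 FPKM there, against 6.05 and 18.1 FPKM in Col-0 (log2 -0.03 ± 0.28 and -0.17 ± 0.19). The rise thus did not extend to every synthesis gene.

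With BL, 0 of the 9 tested genes were called against 5.46% of all genes, 1 of 9 had an unadjusted p-value under 0.05 (GA20OX1) against 13.1%, and 0 passed the 2-fold rule against 2.3%. The median log2 ratio was 0.14, beside 0.00 for all genes, and 7 of 9 had a positive ratio. In BZR1-YFP, 0 of 9 were called by the authors' Cuffdiff test against 1.62% of all genes, 0 had an unadjusted p-value under 0.05 against 5.48%, and 0 passed the 2-fold rule against 0.871%. The median log2 ratio there was 0.18, beside 0.00 for all genes, and 8 of 9 had a positive ratio. A positive sign in most of the genes was thus not particular to BEH2-YFP, and the ratios of the 2 lines share the Col-0 value. With backgrounds this low, counts of 0 in 9 genes are near the background in both comparisons. For the 4 genes called in BEH2-YFP, the BL intervals ended at 0.15 (GA3), 0.61 (GA3OX1), 0.46 (GID1A) and 0.54 (GID1B), all under a 2-fold rise.

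The difference between the lines was tested as the BEH2-YFP ratio minus the BZR1-YFP ratio, which is the BEH2-YFP level over the BZR1-YFP level because both share Col-0. A two-sided normal test on the authors' statistics was adjusted over 22336 genes, of which 802 (3.59%) were called. It rests on 2 libraries per group, and pooled values allow no exact test over libraries. Its standard errors count the Col-0 error, which cancels in the difference, so errors and intervals are likely too wide. A gene not called by it may still differ between the lines. Of the 8 synthesis and receptor genes that could be tested, 2 differed. GA3 was 1.97-fold higher in BEH2-YFP than in BZR1-YFP (difference 0.98 ± 0.26 on the log2 scale, adjusted p = 0.00878 from the authors' statistics). GID1B was 2.16-fold higher (difference 1.11 ± 0.28, adjusted p = 0.00405 from the authors' statistics). GA3OX1 was not called after adjustment (difference 0.91 ± 0.32, 95% interval 0.28 to 1.54, p = 0.00477, adjusted p = 0.103 from the authors' statistics), and its interval lies above 0. GA20OX2 likewise had an unadjusted p of 0.0486 (difference 1.12 ± 0.57, adjusted p = 0.472 from the authors' statistics). For GID1A the difference was 0.42 ± 0.27 (interval -0.11 to 0.95, adjusted p = 0.738 from the authors' statistics), so its rise in BEH2-YFP was not shown to differ from BZR1-YFP. The remaining 3 were GA2 at 0.46 ± 0.36 (adjusted p = 0.897 from the authors' statistics), GA20OX1 at -0.20 ± 0.46 and GID1C at 0.21 ± 0.28, and GA1 and GA20OX3 could not be tested.

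**Figure D3:**
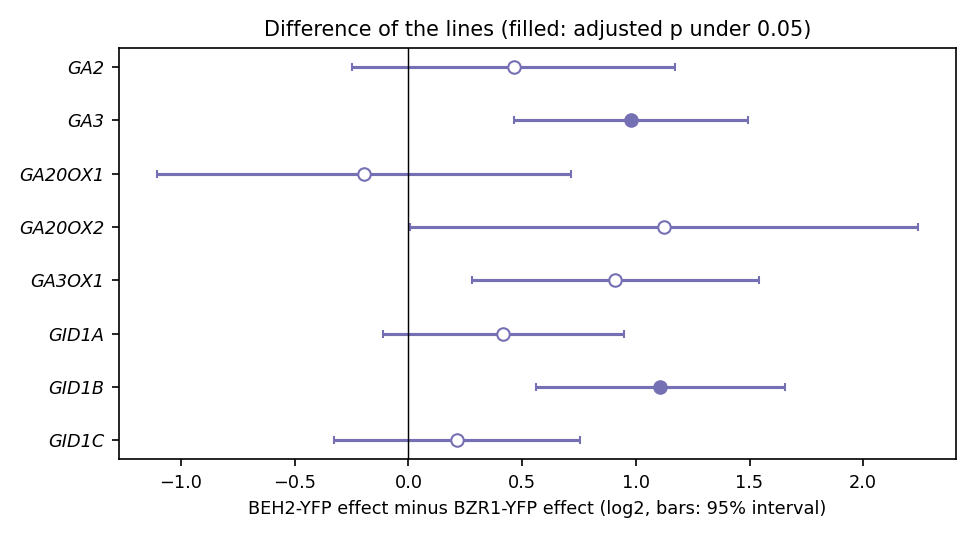
BEH2-YFP ratio minus BZR1-YFP ratio on the log2 scale for the 8 genes tested in both lines, with 95% intervals. The intervals count the shared Col-0 error and are likely too wide. GA3 (0.98) and GID1B (1.11) are filled, with an adjusted p under 0.05; the interval of GID1C runs from -0.33 to 0.75.

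Levels in the hormone experiment differed from those in the overexpression experiment for several of these genes. The experiments come from separate Cuffdiff runs, mock against untreated Col-0 has no test, and handling, harvest and normalization cannot be told apart in it. GID1B was 2.79-fold higher in mock than in untreated Col-0, GA3 2.38-fold, GID1A 1.79-fold, GA3OX1 1.51-fold and GID1C 1.41-fold. GA20OX3 was 6.92-fold lower in mock, GA20OX1 4.72-fold and GA2 1.69-fold. Across the 19674 genes with at least 1 FPKM in both groups the median log2 ratio was 0.20, with quartiles of -0.15 and 0.49, and 12.5% differed at least 2-fold. Of the 10 genes, 6 belong to that set, and 2 of these 6 differed at least 2-fold. GA20OX1 and GA20OX3, below 1 FPKM in mock, lie outside it. The shoot markers LHCB1.1 and LHCB2.1, which have near-identical gene copies, stood at 9.33 and 28.4 FPKM in mock, against 4503 and 2302 FPKM in untreated Col-0, while RBCS1A stood at 6534 FPKM in mock and 9080 FPKM in untreated Col-0. Values of the 2 experiments are therefore set side by side here as levels only.

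The rest of the gibberellin pathway was read from a list of 33 further genes. With BL, 3 of the 25 tested rose and 2 fell, and the median log2 ratio was 0.02. In BEH2-YFP 3 of 24 tested rose and 0 fell, with a median of 0.04, and in BZR1-YFP 1 of 24 rose, with a median of 0.01; adjusted again over genes with at least 1 FPKM, the counts called were 5, 4 and 0. The shares called among all genes were those given above, 5.46%, 11.8% and 1.62%. The median of the list thus lay near 0 in all 3 comparisons, like that of all genes, which does not mean that its genes stayed unmoved. At an unadjusted Cuffdiff p-value under 0.05 there were 6 of 25 with BL, 11 of 24 in BEH2-YFP and 3 of 24 in BZR1-YFP. The shares of all genes were 13.1%, 23.3% and 5.48%.

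Of the genes listed for inactivating gibberellin, 2 of 8 tested rose and 1 fell with BL, and 0 of 8 were called in each line. GA2OX2, a 2-oxidase that deactivates bioactive gibberellin, was at 7.57 FPKM with BL and 4.51 FPKM in mock (log2 0.75 ± 0.21, q = 0.00953 in the authors' deposited table). GA2OX8, a 2-oxidase acting on earlier intermediates, was at 3.53 FPKM with BL and 1.06 FPKM in mock and rose 3.33-fold (log2 1.74 ± 0.34, q = 0.00175 in the authors' deposited table). AT5G58660, described in the files only as an oxygenase of the superfamily that uses iron and 2-oxoglutarate, fell 3.11-fold, at 6.43 FPKM with BL and 19.98 FPKM in mock (log2 -1.64 ± 0.19). GA2OX2 was at 3.18 FPKM in BEH2-YFP, 2.81 FPKM in BZR1-YFP and 1.89 FPKM in Col-0, not called in either line (q = 0.102 and 0.321 in the authors' deposited tables). In the authors' Cuffdiff tests, 4 of the 8 had an unadjusted p-value under 0.05 in BEH2-YFP and 1 of the 8 in BZR1-YFP, against 23.3% and 5.48% of all genes. Of the 4, named after their values were seen, GA2OX1, GA2OX2 and GA2OX6 lay above Col-0 (log2 0.91 ± 0.35, 0.75 ± 0.28 and 0.67 ± 0.24). ELA2, below 1 FPKM in both groups, lay below Col-0 (log2 -1.24 ± 0.47). Adjusted again over genes with at least 1 FPKM, GA2OX6 was called in BEH2-YFP (q = 0.0393, from the authors' Cuffdiff p-values).

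The DELLA repressor genes GAI, RGA, RGL1, RGL2 and RGL3 were not called in any of the 3 comparisons, with 2 of 5 at an unadjusted p-value under 0.05 of the Cuffdiff test in BEH2-YFP, against 23.3% of all genes, and 0 of 5 with BL and in BZR1-YFP, against 13.1% and 5.48%. These 2, named after their values were seen, lay on opposite sides of Col-0. RGA was at 30.9 FPKM in BEH2-YFP and 41.6 FPKM in Col-0 (p = 0.0149, q = 0.152 in the authors' deposited table), and RGL1 was at 6.90 FPKM in BEH2-YFP and 5.04 FPKM in Col-0 (p = 0.0312, q = 0.255 in the authors' deposited table). SCL3, a GRAS protein that acts against DELLA repressors and whose own transcript is held up by them, rose in BEH2-YFP, at 12.7 FPKM against 6.05 FPKM in Col-0 (log2 1.07 ± 0.20, q = 0.00149 in the authors' deposited table). It was at 6.43 FPKM in BZR1-YFP, and the lines differed for it (difference 0.98 ± 0.28 on the log2 scale, adjusted p = 0.0205 from the authors' statistics). In the hormone experiment SCL3 was at 18.3 FPKM with BL and 16.4 FPKM in mock, not called, both above its BEH2-YFP level.

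The GASA genes encode small cysteine-rich proteins, several of which are known to respond to gibberellin. GASA1 was at 1625 FPKM in BEH2-YFP and 260 FPKM in BZR1-YFP, against 178 FPKM in Col-0, and rose 9.12-fold in BEH2-YFP (log2 3.19 ± 0.20) and 1.46-fold in BZR1-YFP (log2 0.54 ± 0.18, q = 0.0307 in the authors' deposited table). With BL it fell to 373 FPKM, against 862 FPKM in mock (log2 -1.21 ± 0.15), so this gene was called in opposite directions with the hormone and in BEH2-YFP. Its call in BZR1-YFP was lost when p-values were adjusted again within that comparison over genes with at least 1 FPKM (q = 0.133, from the authors' p-values). The parts of the filter and of the separate adjustment in this loss were not tested. GASA6 rose with BL, at 100.1 FPKM against 46.1 FPKM in mock (log2 1.12 ± 0.16), and was at 199 FPKM in BEH2-YFP, 190 FPKM in BZR1-YFP and 253 FPKM in Col-0, not called. GASA14 (AT5G14920) rose 2.47-fold in BEH2-YFP, at 77.1 FPKM against 31.2 FPKM in Col-0 (log2 1.30 ± 0.18), and was at 26.6 FPKM in BZR1-YFP; the lines differed for it (difference 1.54 ± 0.25 on the log2 scale, adjusted p = 2.58e-07 from the authors' statistics). In the hormone experiment GASA14 was at 114.8 FPKM with BL and 140.7 FPKM in mock, not called, both above its BEH2-YFP level. GASA4 was not called in any comparison.

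**Figure D4:**
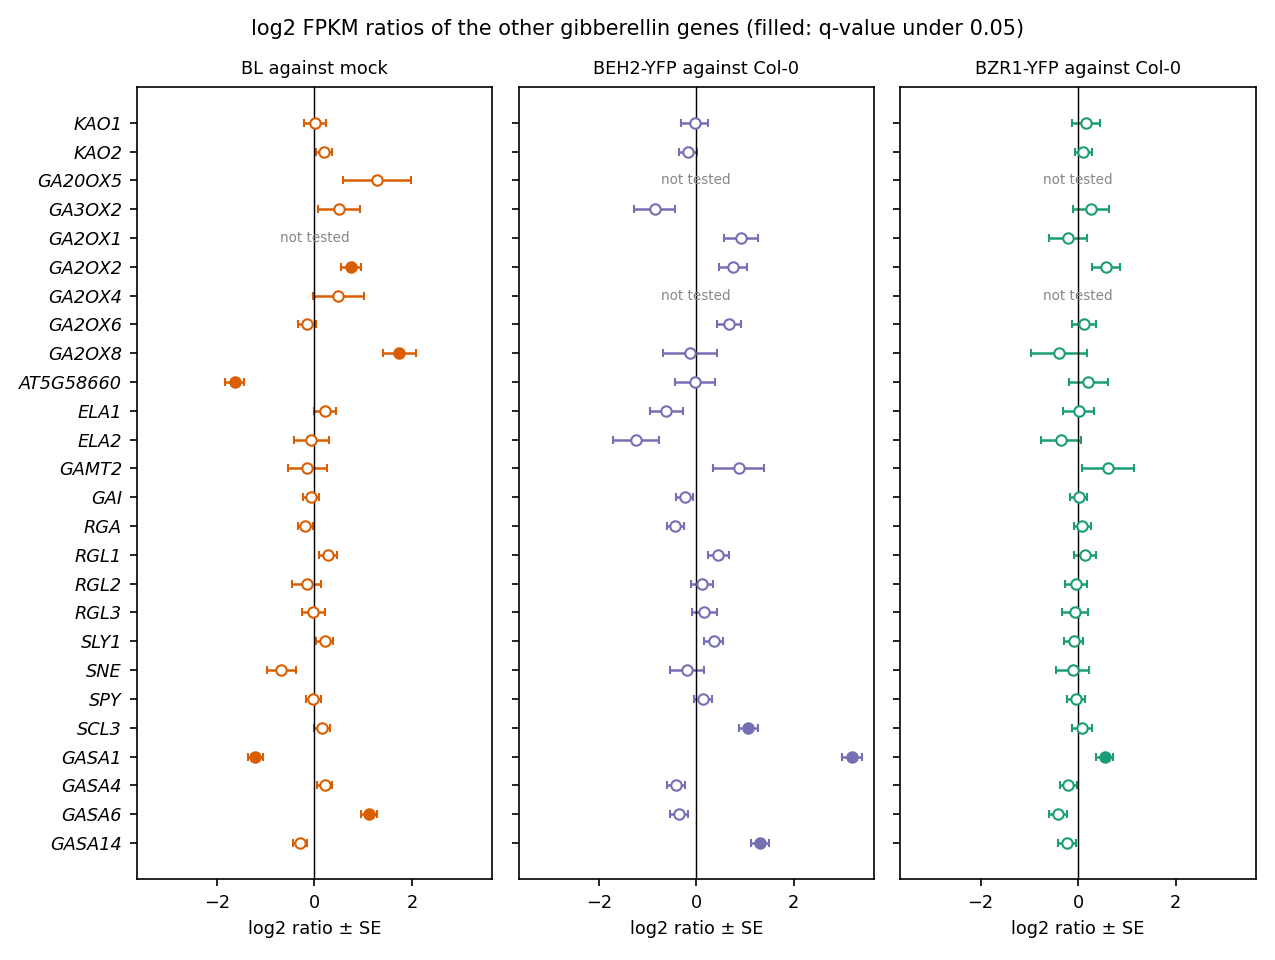
log2 ratio of FPKM, with bars of 1 standard error, for the genes of the further list that were tested in at least 1 comparison; filled points have a q-value under 0.05. GASA1 lies at -1.21 with BL, at 3.19 in BEH2-YFP and at 0.54 in BZR1-YFP.

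For each of the 4 genes called in BEH2-YFP, the 2 genes with the nearest set of 3 log2 ratios were sought by Euclidean distance among 8214 genes with a symbol, at least 1 FPKM in all 5 groups and a test in all 3 comparisons. GA3 lay nearest to JAZ7, a jasmonate signalling repressor (distance 0.063), and the carboxypeptidase-like gene SCPL7 (0.123). GA3OX1 lay nearest to the zinc transporter gene ZIP4 (0.020) and to scpl48, another carboxypeptidase-like gene (0.061). GID1B lay nearest to ZIP5, also annotated as a zinc transporter gene (0.037), and LecRK-I.9, a lectin receptor kinase gene (0.102). GID1A lay nearest to the amino acid transporter gene LHT2 (0.045) and the kinase gene WNK8 (0.068). Likeness here is over 3 ratios, 2 of which share the Col-0 value.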

How the data were processed

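Per the submitters' processing notes, reads of 10 stranded mRNA libraries were processed with TopHat2 2.0.13 and Cuffdiff 2.2.0 on TAIR10; how strand and multi-mapped reads were handled is not given in the sources used here. Per the file headers, the authors deposited 3 tables of 38303 genes with group FPKM pooled over 2 libraries, log2 ratios without a pseudocount, a test score (the Cuffdiff statistic), p-values and q-values. Depth, library spread and outlying libraries could not be computed.

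Samples were grouped by the labels. The genes, lists and tests were chosen with earlier results of these data known. Named were the 10 genes, list genes called in at least 1 comparison, the 2 nearest genes of each called member, and the overexpressed BZR1 and BEH2. Organ markers, AT1G79470 and uncalled list genes (GASA4, GA3OX2, KAO1, KAO2, GA2OX1, GA2OX6, ELA2 and the DELLA genes) are named beside them. Standard errors were |log2 ratio| divided by k times |statistic|, where k (1.43, 1.42 and 1.43) is the median of |z| over |statistic|, with z the normal quantile matching each p-value, for p-values between 0.0002 and 0.9. The difference of the lines used both squared errors summed, which counts the shared Col-0 error although it cancels, and Benjamini-Hochberg adjustment; it was tested on simulated data. The titles call libraries biological replicates without saying what was separate, so p-values may measure partly technical spread.

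Exon counts, windows and motifs were read from the TAIR10.1 RefSeq genome and annotation, the build named in the files' annotation columns. Tools were Biopython 1.88, SciPy 1.17.1, pandas 2.3.3, numpy 2.4.6 and matplotlib 3.10.9 in Python 3.11.15. Alternatives were other call rules, a pseudocount of 1 FPKM, centring on the median gene and equal sums of FPKM.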

Additional observations from a re-analysis of the deposited data

Results flagged for a closer look

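The test of the difference between the lines picked out 2 of the 8 genes. For GA3 the BEH2-YFP ratio minus the BZR1-YFP ratio was 0.98 on the log2 scale, from 34.4 FPKM in BEH2-YFP and 17.5 FPKM in BZR1-YFP. For GID1B it was 1.11, from 19.4 FPKM in BEH2-YFP and 9.00 FPKM in BZR1-YFP. Samples that stand apart could not be sought, because there is 1 pooled value per group.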

How the results depend on the processing

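The number of synthesis and receptor genes called in BEH2-YFP was 4, with 5 at an unadjusted p-value under 0.05, 3 at a q-value under 0.1 with 2-fold change, and 4 when p-values were adjusted again over genes with at least 1 FPKM. With BL it was 0 and became 1 at an unadjusted p-value; in BZR1-YFP it was 0 under all these rules. For the difference of the lines it was 2, stayed at 2 when adjusted over genes with at least 1 FPKM, and became 4 at an unadjusted p-value. Of the 27 log2 ratios recomputed, 25 moved by less than their standard error with a pseudocount of 1 FPKM and 2 moved by more, GA20OX1 with BL (0.34) and GA20OX3 in BEH2-YFP (0.29); all 27 moved by less with centring and with equal sums, and none changed sign. No paired analysis was possible because the deposited tables hold 1 pooled value per group; leaving out each replicate was not run for the same reason. Without depth, a detection limit for genes below 1 FPKM such as GA1 and GA20OX3 cannot be given.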
